A study of Homo sapiens with 12 samples.

Results

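The 10 genes described here encode the enzymes of glycolysis from glucose-6-phosphate isomerase to pyruvate kinase, with isoforms of aldolase and enolase: GPI, ALDOA, ALDOC, TPI1, GAPDH, PGK1, PGAM1, ENO1, ENO2 and PKM. They were taken by gene symbol, with earlier results of these data known, and all 10 had a row in both deposited tables. These tables held 30703 genes for KYSE150 and 30106 for KYSE410, of which 26115 were in both.

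KYSE150 and KYSE410 are established human esophageal cancer lines, labelled as wild type. Each was sequenced as 3 mRNA libraries at 21% oxygen (normoxia) and 3 at 0.5% oxygen (hypoxia), so 4 groups and 12 libraries in all. The hypoxia label gives 48 h and the normoxia label 0, whereas the design text puts cells of both oxygen levels at 48 h; the time that normoxic cells spent in culture is therefore not settled. No label ties a replicate to its own culture dish, so the p-values below measure spread between libraries that may be technical. Expression was read as FPKM, which scales fragments to transcript length and library size.

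Glycolysis splits glucose into pyruvate in the cytosol and yields ATP without oxygen. Cells short of oxygen rely on it, and the transcription factor HIF-1, stabilised at low oxygen, is known to act on many of its genes through short promoter elements with the core ACGTG or GCGTG. Aldolase A and enolase 1 are the isoforms of most tissues; aldolase C and enolase 2 are best known from the brain, liver-type pyruvate kinase (PKLR) from the liver, and enolase 3 from muscle. Tumour cells are known for a high glycolytic rate even where oxygen is present.

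The libraries summed to between 351501 and 425094 FPKM, with 22787 to 24667 genes above 0. In KYSE410 the sums were 351501 to 356994 in normoxia and 415926 to 425094 in hypoxia, without overlap. In KYSE150 they overlapped, at 366156 to 413967 and 377909 to 382990. Values as deposited thus carry a larger sum in KYSE410 hypoxia, which rescaling to a common sum removes. Read depth is unknown. Normoxia replicate 2 of KYSE150 stood apart as a whole library, with a sum of 413967 FPKM against 370573 and 366156 in its group. It was the highest of its group for 9 of the 10 enzymes (ENO2 was the exception). Over all 10 it stood at 1.01 to 1.33 times the mean of the other 2 libraries. The number in the library names ran from 50 to 55 in KYSE150, but was 38 to 40 for KYSE410 normoxia and 56 to 58 for KYSE410 hypoxia, so in KYSE410 a library set read from those numbers cannot be told apart from oxygen. Of 11 epithelial markers, 9 averaged at least 1 FPKM in KYSE410 and 5 in KYSE150, where CDH1, KRT5, KRT14, KRT19, TP63 and SOX2 were under that level. The epithelial markers found in KYSE150 were EPCAM, KRT8, KRT18, KRT17 and DSP. Levels set across the lines below assume that FPKM of the separately deposited tables is comparable.

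All 10 enzyme mRNAs rose in hypoxia in both lines, and in each case the 3 hypoxia libraries lay above the 3 normoxia libraries. ALDOC and ENO2, the isoforms with the lowest normoxic levels, rose the most: ALDOC averaged 8.41 times its normoxic level in KYSE150 and 10.6 times in KYSE410, and ENO2 7.74 and 7.07 times. ENO1, the isoform with the most enolase mRNA, rose the least, at 1.83 and 2.16 times. In KYSE150 the median log2 change of the 10 was 1.69 (range 0.88 to 2.94), against -0.13 over the 12692 genes tested, of which 23.5% were called higher and 27.0% had all hypoxia libraries above all normoxia libraries. In KYSE410 the median was 2.07 (1.11 to 3.09), against -0.21 over 12054 genes, of which 31.2% were called higher and 31.9% lay apart in that way. In the values as deposited, a rise of at least 1 on the log2 scale was reached by 8 of the 10 in KYSE150. In KYSE410 it was reached by 10 of 10, and the shares of all genes tested were 4.49% and 6.29%. The test was limma on log2(FPKM + 1) with Benjamini-Hochberg adjustment over all genes tested, and the largest adjusted p of the 10 was 4.77e-04 in KYSE150 and 1.26e-07 in KYSE410. FPKM gives each mRNA as a share of its library, so that a rise cannot be told apart from a fall in the total mRNA of a cell, and in such bulk libraries more expressing cells and more mRNA per cell cannot be told apart. Median-of-ratios scaling moved the median of all genes in KYSE150 from -0.13 to 0.02 and turned the split of calls from 2981 higher and 4925 lower into 4003 and 3692; in KYSE410 it went from -0.21 to -0.03 and from 3763 and 6254 to 4841 and 5194. The 10 enzymes were called higher under each scaling tried, but which of them rose by at least 1 depended on the scaling. In KYSE410 ENO1 was at 0.86 after rescaling to a common sum. Under quantile normalization ENO1 (0.37), TPI1 (0.59) and PKM (0.68) were below 1 there. In KYSE150 median-of-ratios scaling took PGAM1 to 1.16 and ENO1 to 1.06.

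**Figure D1:**
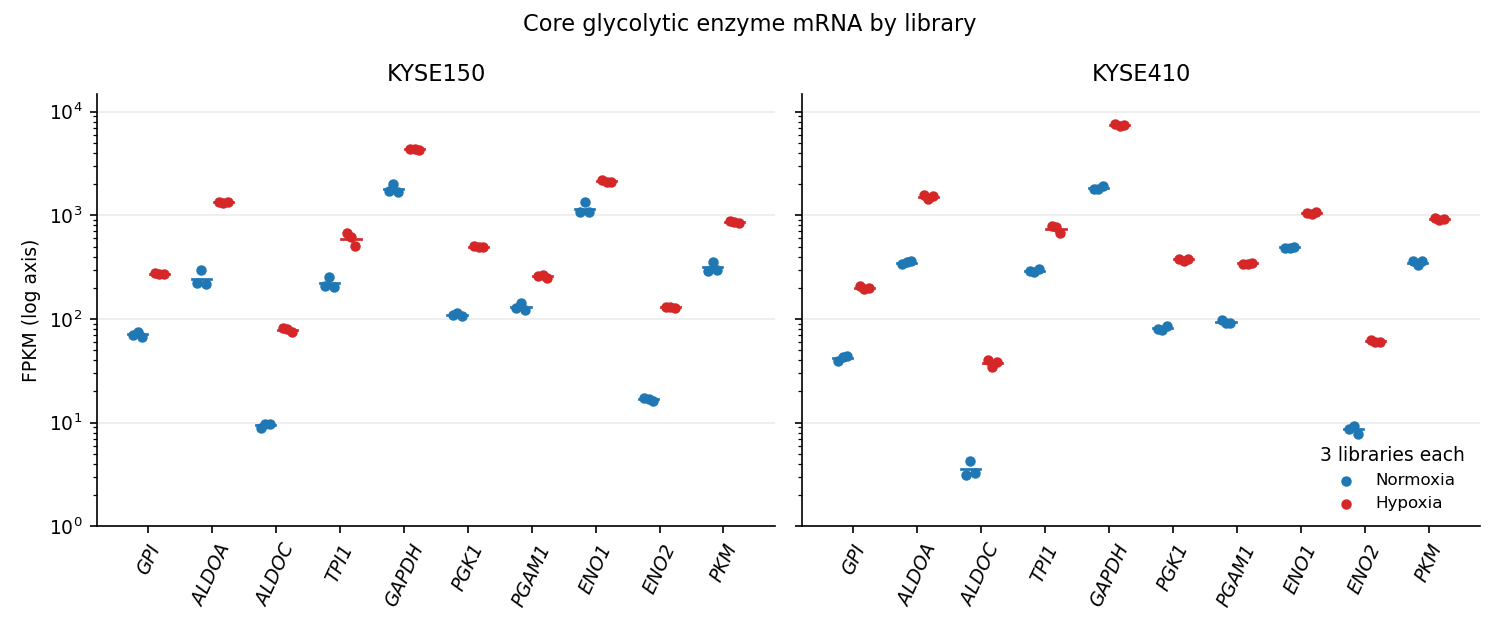
FPKM of each enzyme in every library, on a log axis, with the enzymes in pathway order; points are libraries, short lines group means, blue normoxia and red hypoxia, with KYSE150 left and KYSE410 right. The red points lie above the blue points for all 10 enzymes in both lines, and GAPDH is the highest and ALDOC the lowest in each of the 4 groups.

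Short stretches around the HIF core motif are shown because these genes moved together and the motif is the element best known from their promoters. The letters ACGTG or GCGTG were searched on both strands in the 250 bases before the start sites of the RefSeq promoter table (GRCh38.p14), which lists 13 windows for the 10 genes. For GPI, GAPDH, PGAM1 and PKM the listed starts lie inside the RefSeq gene, and the bases before its outer end were not searched; for TPI1 they were searched only in part. At least 1 match stood in 10 of the 13 windows (76.9%), against 43.2% of 35116 windows of all genes, which were not matched for base content. The 10 windows came from 8 of the 10 genes. ALDOA and TPI1 have more than 1 window each, and no share by gene was taken over all genes. At least 2 stood in 6 of the 13 windows (46.2%), against 19.4% of all windows, where a CACGTG counts as 2 matches because it reads on both strands. Each line below gives 1 match, read 5′ to 3′ on the strand that carries it, with the core in capitals. In GAPDH and ALDOA the letters form CACGTG, which is also the core of the E-box, the site of other factors.

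GAPDH, chr12:6535172-6535200, plus strand: ctctgcggggtCACGTGtcgcagaggagc
ALDOA, chr16:30064374-30064402, plus strand: ggcagggaggcCACGTGatccgagtcccc
GPI, chr19:34364818-34364846, plus strand: acactgcctgtaACGTGgaaggtgttcga
PGK1, chrX:78104034-78104062, plus strand: gcggcgtgccggACGTGacaaacggaagc
ENO2, chr12:6914450-6914478, plus strand: acccgcgctcgtACGTGcgcctccgccgg
ALDOC, chr17:28576907-28576935, plus strand: tgtcgcagagctACGTGactcctccgggg
TPI1, chr12:6868076-6868104, minus strand: gagtctggggctACGTGcggcggcgcacg
ENO1, chr1:8878742-8878770, minus strand: ggagctgaggggGCGTGccccggaggcgg

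The ALDOC window held 5 matches, 2 of them from 1 CACGTG, and the PGK1 window 3; the 2 matches of GAPDH are the single CACGTG shown. The ENO1 core lay 72 bases before the start and the GAPDH core 80 bases. No match stood in the windows of PGAM1 and PKM, which says only that these letters are not in the bases searched; PGAM1 and PKM rose with the others. A match is a description of the letters, and no binding was measured here.

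The first enzymes of the series convert glucose 6-phosphate into triose phosphates. GPI, the isomerase that makes fructose 6-phosphate (chr19:34359480-34402413, plus strand, GENCODE 29 on GRCh38, as for all genes below), read 70.2, 75.1 and 67.5 FPKM in KYSE150 normoxia and 277, 271 and 270.4 in hypoxia. In KYSE410 it read 39.4, 43.2 and 44.4 in normoxia and 206, 194 and 198 in hypoxia. The groups were far apart in both lines, with log2 changes of 1.93 ± 0.07 (SE) and 2.21 ± 0.05. ALDOA, the aldolase of muscle and most other tissues, which splits fructose 1,6-bisphosphate (chr16:30064164-30070457, plus strand), read 224, 294 and 218 FPKM in KYSE150 normoxia and 1344, 1324 and 1355 in hypoxia. The values in KYSE410 were 340.1, 352 and 359 at 21% oxygen and 1575, 1450.2 and 1538 at 0.5%. Normoxia replicate 2 was the high library in KYSE150, and the change of 2.46 ± 0.13 there became 2.60 without it. The change in KYSE410 was 2.11 ± 0.04.

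TPI1, which interconverts the triose phosphates (chr12:6867119-6870948, plus strand), read 206, 254 and 202 FPKM in KYSE150 normoxia and 670.4, 613 and 505 in hypoxia. The KYSE410 libraries gave 288, 284 and 305 in normoxia and 784, 768 and 674 in hypoxia. Hypoxia replicate 3 was the lowest of its group in both lines, and TPI1 had the widest spread of the 10 enzymes in KYSE150 hypoxia (596 ± 84.2 FPKM, SD, n = 3). The log2 changes were 1.43 ± 0.14 and 1.34 ± 0.06.

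GAPDH and PGK1 act in sequence at the step where glycolysis first makes ATP. GAPDH, which oxidises glyceraldehyde 3-phosphate and is often used to normalise other assays (chr12:6533927-6538374, plus strand), read 1733, 2014 and 1665 FPKM in KYSE150 normoxia and 4395, 4348 and 4256 in hypoxia. KYSE410 gave 1810, 1801 and 1903 FPKM at 21% oxygen and 7565, 7289 and 7495 at 0.5%. The normoxic levels of the lines were close, and every KYSE410 hypoxia library was above every KYSE150 one. GAPDH was the single highest row of the table in all 6 hypoxia libraries; in normoxia it ranked 16 to 17 in KYSE150 and 11 to 12 in KYSE410. Its log2 changes were 1.27 ± 0.12 and 2.02 ± 0.03. PGK1, the kinase that passes phosphate to ADP (chrX:77910739-78129296, plus strand), read 109, 114 and 106 FPKM in KYSE150 normoxia and 505, 496 and 496 in hypoxia. In KYSE410 it read 80.5, 78.6 and 84.8 in normoxia and 383, 365 and 380.5 in hypoxia. Its changes of 2.18 ± 0.07 and 2.197 ± 0.038 were the closest of the 10 between the lines.

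PGAM1, ENO1 and PKM carry the last steps to pyruvate. PGAM1, the mutase that moves phosphate from carbon to carbon of phosphoglycerate (chr10:97426160-97433441, plus strand), read 127, 144 and 122 FPKM in KYSE150 normoxia and 258, 267 and 251 in hypoxia. The KYSE410 libraries gave 97.4, 90.9 and 91.3 in normoxia and 343, 337 and 351 in hypoxia. KYSE410 began below KYSE150 and ended above it, with no overlap at either oxygen level; the log2 changes were 0.98 ± 0.09 in KYSE150 and 1.87 ± 0.04 in KYSE410. ENO1, which removes water from phosphoglycerate (chr1:8861000-8879250, minus strand), read 1073, 1344 and 1073 FPKM in KYSE150 normoxia and 2171, 2120.0 and 2103 in hypoxia. KYSE410 gave 487, 489 and 499 FPKM at 21% oxygen and 1064, 1040 and 1076 at 0.5%. ENO1 changed the least of the 10 in both lines, by 0.88 ± 0.12 (0.99 without normoxia replicate 2) and 1.11 ± 0.03. PKM, the pyruvate kinase of most tissues (chr15:72199029-72231822, minus strand), read 292, 353 and 299.9 FPKM in KYSE150 normoxia and 875, 857 and 847 in hypoxia. The values in KYSE410 were 359, 329 and 362 at 21% oxygen and 937, 905 and 926 at 0.5%. As deposited, KYSE410 was slightly above KYSE150 in hypoxia, without overlap. The hypoxia libraries of KYSE410 also summed to more FPKM (415926 to 425094, against 377909 to 382990 in KYSE150). This small gap therefore depends on how the tables are scaled. The log2 changes of PKM were 1.45 ± 0.10 and 1.40 ± 0.04. The table has 1 row for the gene, so the M1 and M2 splice forms were not analysed here.

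**Figure D2:**
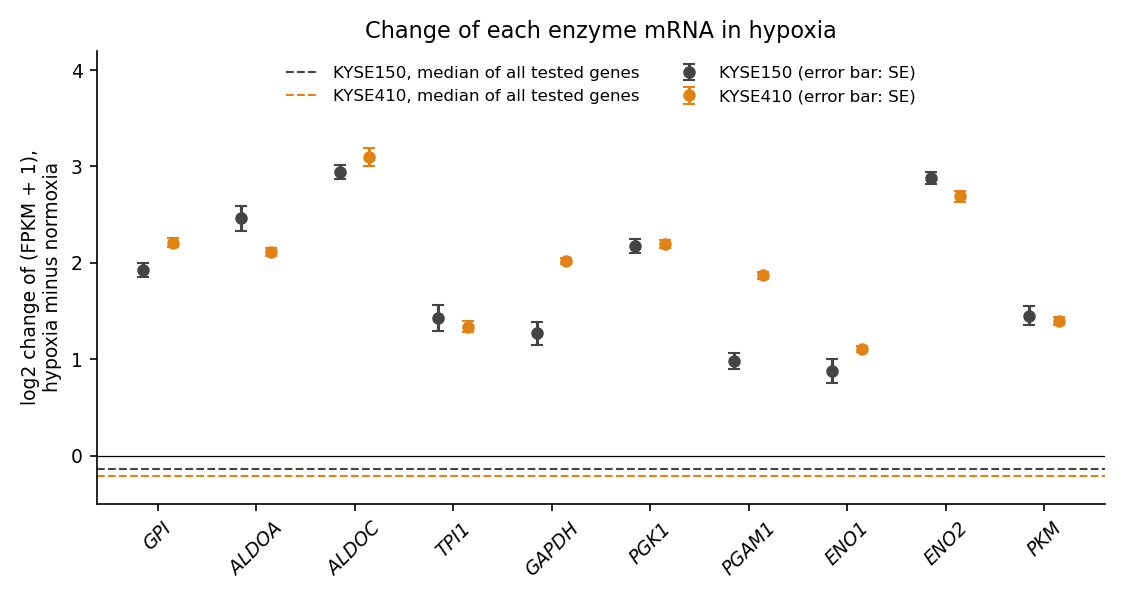
Log2 change of (FPKM + 1), hypoxia minus normoxia, for each enzyme (points) with its standard error (bars), KYSE150 in grey and KYSE410 in orange; dashed lines give the median of all tested genes in each line, -0.13 and -0.21. All points lie above both dashed lines, ALDOC and ENO2 highest and ENO1 lowest, and PGAM1 and GAPDH show the widest gaps between the lines.

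The isoforms best known from brain gained share within their enzyme in both lines. ALDOC (chr17:28573115-28577264, minus strand) read 8.78, 9.76 and 9.67 FPKM in KYSE150 normoxia and 82.0, 79.99 and 75.2 in hypoxia. In KYSE410 it read 3.10, 4.22 and 3.28 in normoxia and 39.8, 34.7 and 38.4 in hypoxia. The log2 changes were 2.94 ± 0.07 and 3.09 ± 0.09, somewhat understated at such low normoxic levels by the 1 FPKM added before the log. ALDOC made up 3.78%, 3.21% and 4.25% of ALDOA plus ALDOC in the KYSE150 normoxia libraries and 5.75%, 5.70% and 5.26% in hypoxia. In KYSE410 the share was 0.904%, 1.19% and 0.906% in normoxia and 2.46%, 2.34% and 2.43% in hypoxia. No normoxia library reached a hypoxia library of its line, while the share of KYSE410 in hypoxia stayed below that of KYSE150 in normoxia.

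ENO2 (chr12:6913745-6923698, plus strand) read 17.1, 16.9 and 16.3 FPKM in KYSE150 normoxia and 132, 131 and 127 in hypoxia. KYSE410 gave 8.78, 9.25 and 7.79 FPKM at 21% oxygen and 62.1, 59.8 and 60.5 at 0.5%. The log2 changes were 2.88 ± 0.06 and 2.69 ± 0.06. ENO2 was higher in KYSE150 at each oxygen level, yet held a like share of ENO1 plus ENO2 in both lines: 1.44% ± 0.172 in normoxia and 5.74% ± 0.059 in hypoxia in KYSE150 (SD, n = 3), and 1.72% ± 0.165 and 5.43% ± 0.095 in KYSE410. With 3 libraries against 3, an exact two-sided permutation test cannot go below 0.1, which both shares reached in each line. With oxygen labels permuted within both lines together, the exact permutation p was 0.005 for ALDOC and for ENO2, the smallest that the 400 arrangements allow, and 0.005 after adjustment over the 3 shares tested. Over both lines the ALDOC share rose by a mean of 1.62 percentage points and the ENO2 share by 4.01. Shares are ratios within a library, so multiplying a library by 1 factor leaves them as they are; quantile normalization is no such factor, and the shares were not recomputed under it. The main isoforms kept most of the mRNA, and neither ALDOC nor ENO2 passed 5.81% of its pair in any library.

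Markers of neurons, in which ENO2 is abundant, were looked up beside these isoforms. Of 10 listed, 9 had a row in KYSE150 and 6 in KYSE410, and only TUBB3, a tubulin also made by many tumour cells, averaged at least 1 FPKM over both conditions of a line. Their summed level was 8.63 to 12.04 FPKM in the normoxia libraries of KYSE150 and 19.7 to 20.8 in hypoxia. In KYSE410 the sums were 8.58 to 9.31 and 51.9 to 53.4, and TUBB3 alone averaged 19.1 and 52.4 in hypoxia. SNAP25 averaged 1.201 FPKM in KYSE150 normoxia and 0.690 in hypoxia. The other listed markers with a row were each under 0.2 FPKM on average in every group. Their part in the ENO2 and ALDOC results was not tested.

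**Figure D3:**
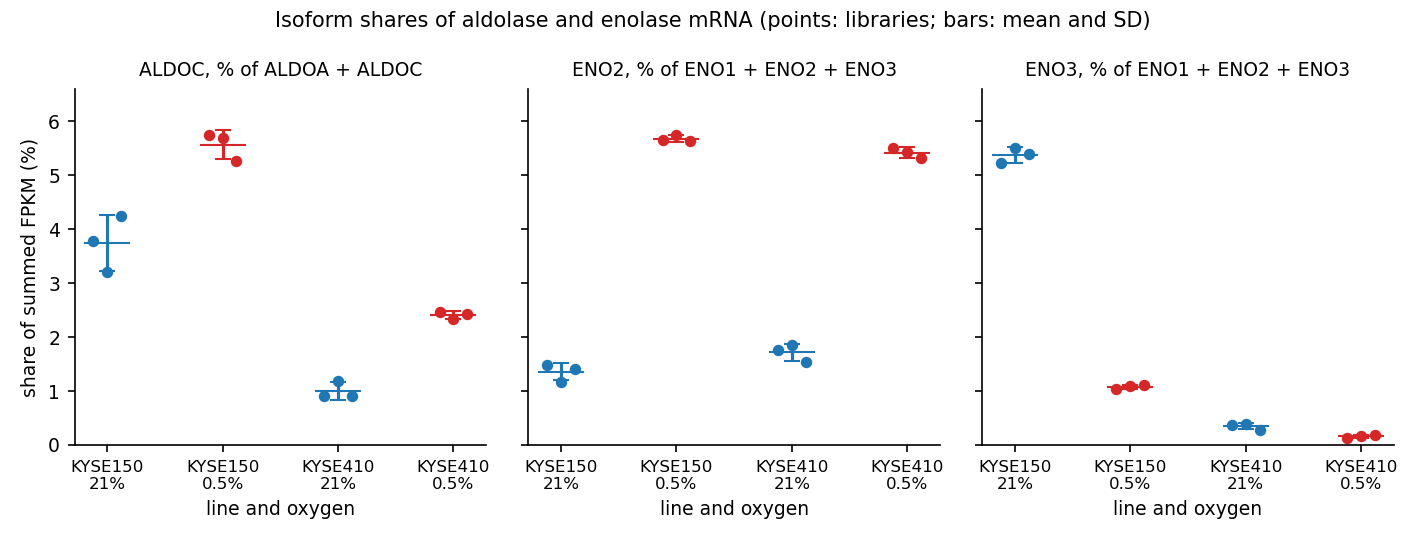
Shares of summed FPKM in every library (points) with group mean and SD, by line and oxygen level: ALDOC among ALDOA and ALDOC (left), ENO2 (middle) and ENO3 (right) among ENO1, ENO2 and ENO3. ALDOC and ENO2 are higher at 0.5% than at 21% oxygen in both lines, while ENO3 is lower, from 5.38% to 1.08% in KYSE150 and from 0.344% to 0.161% in KYSE410.

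ENO3, the muscle enolase, moved against the other enolases in KYSE150. Its normoxia libraries read 60.05, 79.4 and 62.1 FPKM and its hypoxia libraries 24.2, 24.7 and 24.96, a log2 change of -1.40 ± 0.11 (limma, adjusted p = 2.70e-05), with no overlap; of the genes tested in KYSE150 38.8% were called lower and 42.6% had all hypoxia libraries below all normoxia libraries. In KYSE410 ENO3 stood near 2 FPKM in all libraries (1.85, 1.91 and 1.41, then 1.55, 1.75 and 2.14) and its change of 0.04 did not pass (adjusted p = 0.708), although it was called higher, by 0.28, under quantile normalization. In KYSE150 normoxia ENO3 was thus a larger part of enolase mRNA than ENO2, and in hypoxia a smaller one: the log2 ratio of ENO2 to ENO3 went from -1.99 ± 0.22 to 2.40 ± 0.05 (SD, n = 3). The ENO1 share of the 3 enolases was 93.3% ± 0.063 and 93.2% ± 0.070 in KYSE150, where the groups overlapped (exact permutation p = 0.6), and 97.9% ± 0.22 and 94.4% ± 0.070 in KYSE410, where they did not (exact permutation p = 0.1, the smallest possible). PFN1, the actin-binding profilin, overlaps ENO3 on the opposite strand, and whether reads were assigned by strand is not given in the sources used here. PFN1 had a log2 change of -0.56 ± 0.14 in KYSE150 and of 0.58 ± 0.04 in KYSE410. It read 334 to 621 FPKM in the KYSE150 libraries and 727 to 1175 in those of KYSE410, and its part in the ENO3 values was not tested. Among 7 muscle markers only DES and MB averaged at least 1 FPKM in KYSE150 and none did in KYSE410; their sum was 6.06 to 7.92 FPKM in KYSE150 normoxia and 1.82 to 2.56 in hypoxia, and 1.27 to 1.81 and 0.302 to 0.473 in KYSE410. MB, muscle myoglobin, went from 4.49 to 0.805 FPKM in KYSE150. The part of these markers in the ENO3 result was not tested.

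The other tissue-restricted relatives were low. PGAM2, ENO4 and PKLR averaged under 0.2 FPKM in all groups, too low to test. GAPDHS, the sperm form of GAPDH, fell from 2.12 to 0.623 FPKM in KYSE410 and went from 1.202 to 0.573 in KYSE150, where it was too low to test. Its log2 change in KYSE410 was -0.94, shrunk by the added 1 FPKM (ratio of means 0.294). Of the genes tested in KYSE410, 51.9% were called lower. BPGM, which makes 2,3-bisphosphoglycerate, fell in both lines, with changes of -0.90 ± 0.10 and -0.53 ± 0.05. PGAM4, a near-identical copy of PGAM1 that lies within PGK1 on the opposite strand, was called higher in both (0.59 and 1.21). It stood at 0.828% to 1.15% of PGAM1 in every library, so how reads were divided between these copies is uncertain.

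Across the pathway the order of levels was largely kept, though the range narrowed. In KYSE150 normoxia GAPDH (1804 FPKM), ENO1 (1163), PKM (315), ALDOA (245) and TPI1 (221) came first, followed by PGAM1 (131), PGK1 (109.7), GPI (71.0), ENO2 (16.8) and ALDOC (9.40). PKM overlapped ALDOA, and ALDOA overlapped TPI1; the other neighbours in this order were apart. In hypoxia ALDOA (1341) moved past PKM (860) to the third place and PGK1 (499) and GPI (273) moved past PGAM1 (259), with TPI1 and PGK1 overlapping. In KYSE410 normoxia ALDOA (350.4) and PKM (349.96) overlapped in the places behind GAPDH (1838) and ENO1 (492), and in hypoxia ALDOA (1521) moved past ENO1 (1060) and PGK1 (376) past PGAM1 (344). The highest member mean was 192 times the lowest in KYSE150 normoxia and 54.8 times in hypoxia, and 520 and 198 times in KYSE410.

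Summed over isoforms, aldolase rose most as a step in KYSE150, by 5.58 times (254 ± 42.7 to 1420.2 ± 14.0 FPKM, SD, n = 3), and enolase least, by 1.83 times. In KYSE410 the isomerase step (4.71 times), phosphoglycerate kinase (4.63), aldolase (4.40) and GAPDH (4.05) were at the top and enolase at 2.24 times was again the lowest. The 10 genes held 1.06% ± 0.046 of all FPKM in KYSE150 normoxia and 2.77% ± 0.040 in hypoxia, and 1.00% ± 0.028 and 3.03% ± 0.064 in KYSE410 (exact permutation over both lines, p = 0.005, the smallest possible; adjusted over 3 shares, 0.005). GAPDH alone went from 0.470% to 1.14% and from 0.519% to 1.78%. Its part within the 10 went in opposite directions, with no test of the difference between lines: from 44.2% ± 0.664 down to 41.3% ± 0.196 in KYSE150 and from 51.7% ± 0.256 up to 58.6% ± 0.236 in KYSE410, with no overlap in either line.

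PGAM1 and GAPDH responded more strongly in KYSE410 than in KYSE150. The difference between lines in log2 change, tested as the interaction of line and oxygen in a joint limma fit of 12653 genes, was 0.89 ± 0.09 for PGAM1 (95% interval 0.69 to 1.09; adjusted p = 5.90e-06) and 0.75 ± 0.12 for GAPDH (0.50 to 1.00; adjusted p = 1.61e-04). GPI also differed, by 0.28 ± 0.08 (0.10 to 0.46; adjusted p = 0.0104), and ALDOA was the only one called with the larger rise in KYSE150, at -0.35 ± 0.14 (-0.65 to -0.05; adjusted p = 0.0426). So 3 of the 10 were called positive and 1 negative, against 27.3% and 36.0% of all genes tested, and 4 of 10 in either direction against 63.3%. The remaining 6 did not pass: ENO1 differed by 0.23 (-0.03 to 0.48), ALDOC by 0.15 (-0.12 to 0.42), PGK1 by 0.02 (-0.13 to 0.18), PKM by -0.05 (-0.28 to 0.17), TPI1 by -0.09 (-0.43 to 0.26) and ENO2 by -0.19 (-0.37 to -0.01; adjusted p = 0.0591). These intervals are for 1 gene each and are not adjusted. They hold for the values as deposited: PGK1 was called at -0.23 after rescaling to a common sum and at -0.20 under quantile normalization, and TPI1 at -0.34 and -0.72.

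**Figure D4:**
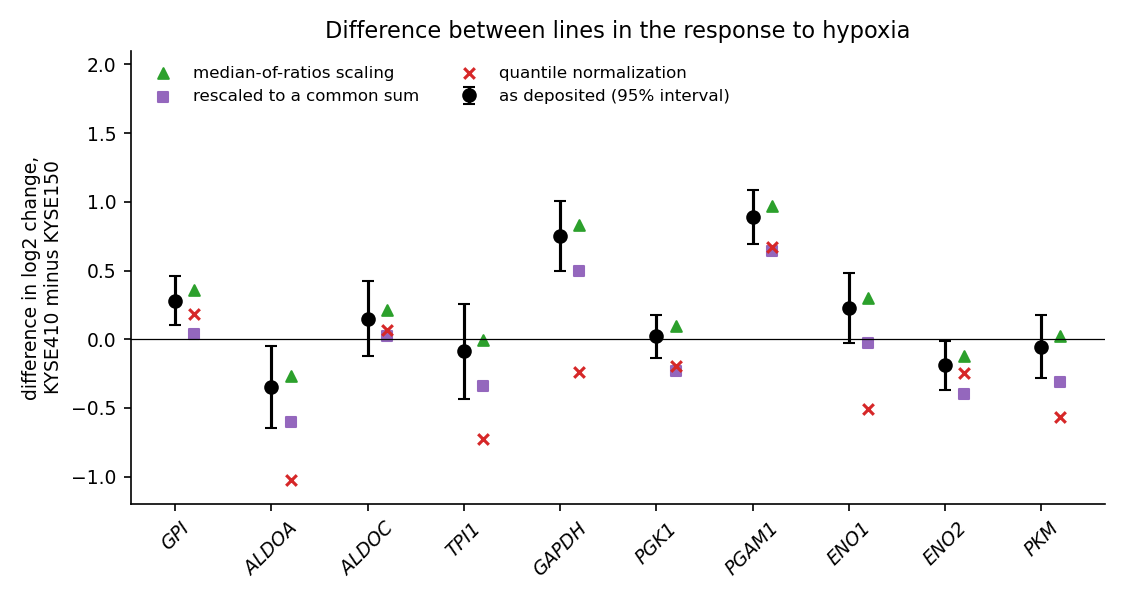
Difference between the lines in log2 change, KYSE410 minus KYSE150, for each enzyme (black points, with 95% intervals as bars), and the same difference after 3 other scalings (coloured marks). PGAM1 stays between 0.64 and 0.97 under all scalings; GAPDH turns from 0.75 to -0.24 under quantile normalization, and ALDOA lies below 0 under all 4.

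Of the 4 called differences, PGAM1 was the only one that stayed called and of the same sign in all 21 alternative settings. GAPDH stayed called, but with the opposite sign under quantile normalization (-0.24), a method that gives the highest row of each library the same value, and GAPDH was that row in every hypoxia library. GPI was lost when libraries were rescaled to a common sum (0.04, adjusted p = 0.659) and at an adjusted p under 0.01. The ALDOA call was lost in 15 of the 21 settings, including the stricter threshold, median-of-ratios scaling (-0.27) and 11 of the 12 settings that left out 1 library. Without normoxia replicate 2 of KYSE150 it held at -0.48, and ENO1 (0.12), ENO2 (-0.20) and PKM (-0.14) were then called as well. Since oxygen and library set cannot be told apart in KYSE410, the same holds for these differences.

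Genes for glucose uptake, the first phosphorylations and lactate formation mostly rose with the 10 enzymes. Of 19 other genes of the pathway, 10 of 16 tested were called higher and 3 lower in KYSE150 (median 0.74), and 13 of 15 higher and 2 lower in KYSE410 (median 0.74). Among all genes tested, 23.5% were called higher and 38.8% lower in KYSE150, and 31.2% and 51.9% in KYSE410. PFKFB4, which sets the level of the phosphofructokinase activator fructose 2,6-bisphosphate, rose by 3.65 and 2.24, with ratios of means of 20.4 and 8.65. Its normoxic means of 1.49 and 0.936 FPKM are low enough for the added 1 FPKM to shrink both changes. SLC2A3, a glucose transporter, rose by 2.94 and 3.94, which are ratios of means of 18.6 and 16.5; at 0.614 FPKM in KYSE150 normoxia its change there is shrunk by the added 1 FPKM. HK2, which phosphorylates glucose, rose by 2.60 and 1.51, and LDHA, which turns pyruvate into lactate, by 1.99 and 2.66. PFKFB2 and SLC16A1, a lactate transporter, were called lower in both lines (SLC16A1 not under median-of-ratios scaling in KYSE410, -0.10), and so was HKDC1 in KYSE150, where it fell by 1.84.

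Genes that draw intermediates away from this stretch moved in both directions. Of 21 tested branch genes, 3 were called higher and 12 lower in KYSE150 (median -0.47), and 10 and 10 in KYSE410 (median -0.02, which was 0.19 under median-of-ratios scaling and -0.26 after rescaling to a common sum). All genes tested had medians of -0.13 and -0.21, with 23.5% called higher and 38.8% lower in KYSE150 and 31.2% and 51.9% in KYSE410. PSAT1, of the serine branch that starts from 3-phosphoglycerate, had the largest falls of this list on the log2(FPKM + 1) scale (-4.24 and -3.13), with means of 378 and 19.1 FPKM in KYSE150 and 296 and 32.9 in KYSE410. The other enzymes of that branch also fell, PSPH with changes of -3.37 and -0.74 and PHGDH with -1.49 and -0.58. GFPT1, the entry to hexosamines from fructose 6-phosphate, changed by -2.17 and -1.04 and TIGAR, a fructose 2,6-bisphosphatase, by -1.48 and -2.33. TIGAR is low enough for the added 1 FPKM to shrink its change: as a ratio of means it stood at 0.0604 of normoxia in KYSE410, below the 0.111 of PSAT1. PGM1, the link to glycogen, rose by 0.57 and 0.92. Among enzymes that run the pathway backwards, PCK2, the mitochondrial phosphoenolpyruvate carboxykinase, fell, with log2 changes of -2.84 and -2.57. PCK1, its cytosolic form, went from 0.199 to 32.7 FPKM in KYSE150, a rise of 4.81, and averaged 0 and 0.00415 FPKM in KYSE410. The rise of 4.81 is shrunk by the added 1 FPKM, and the ratio of means was 165. PCK1 passed the filter on low values in KYSE150 only through its hypoxia libraries. Of this list 2 of 5 tested were called higher and 2 lower in KYSE150 (median -0.19). In KYSE410 0 of 3 were called higher and 2 lower (median -0.30, but 0.03 under quantile normalization). There the split was 1 higher and 1 lower under median-of-ratios scaling and under quantile normalization. HNF4A, a liver transcription factor, went from 0.508 to 3.94 FPKM in KYSE150, where the 5 liver markers summed to between 0.545 and 0.814 FPKM in normoxia and 3.83 to 4.505 in hypoxia; its part in the PCK1 result was not tested.

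Splicing factors known to choose between the M1 and M2 exons of PKM moved unevenly. Of 6 tested, 4 were called higher and 1 lower in KYSE150 (median 0.36), and 3 and 2 in KYSE410 (median 0.06, which was -0.19 after rescaling to a common sum). Over all genes tested, 23.5% were called higher and 38.8% lower in KYSE150, and 31.2% and 51.9% in KYSE410. HNRNPA1, which represses the M1 exon, rose by 1.21 and 1.28, and SRSF3, which favours the M2 exon, fell, with changes of -1.40 and -0.39. NEK2, a kinase that binds HNRNPA1, rose by 1.31 in KYSE150; in KYSE410 it was called higher at 0.20, a call lost after rescaling to a common sum (-0.03). PTBP1, which acts with HNRNPA1, rose by 0.36 in KYSE150 and changed direction with scaling in KYSE410.

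GAPDH and PGK1 are common references in quantitative PCR, and both stood at the top of the 18 reference genes compared. In KYSE150, 7 of the 18 were called higher, 3 lower and 8 not called (median 0.23), and in KYSE410 11 were higher, 4 lower and 3 not called (median 0.55, which was 0.14 under quantile normalization). These counts include GAPDH and PGK1. The shares of all genes tested were 23.5% higher and 38.8% lower in KYSE150, and 31.2% and 51.9% in KYSE410. TUBB rose by 0.93 and 1.76 and SDHA by 1.08 and 1.18, whereas TBP changed by -0.57 and -1.38. ACTB was called in opposite directions, at 0.32 in KYSE150 (0.05 and not called under quantile normalization) and -0.31 in KYSE410. YWHAZ was the only one of the 18 not called in either line, at 0.10 and 0.12. It was called higher in both lines under median-of-ratios scaling (0.27 and 0.33), but lower in KYSE410 under quantile normalization (-0.25). Read against GAPDH within each library, the log2 ratio of ACTB changed by -0.94 in KYSE150 and -2.33 in KYSE410 and that of TBP by -1.92 and -3.56, ratios that a single factor per library leaves as they are but quantile normalization does not. The enzymes read against GAPDH ranged from -0.39 (ENO1) to 1.80 (ALDOC) in KYSE150 and from -0.91 (ENO1) to 1.40 (ALDOC) in KYSE410. On that scale, as deposited, PKM changed by 0.18 in KYSE150 and by -0.62 in KYSE410.

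**Figure D5:**
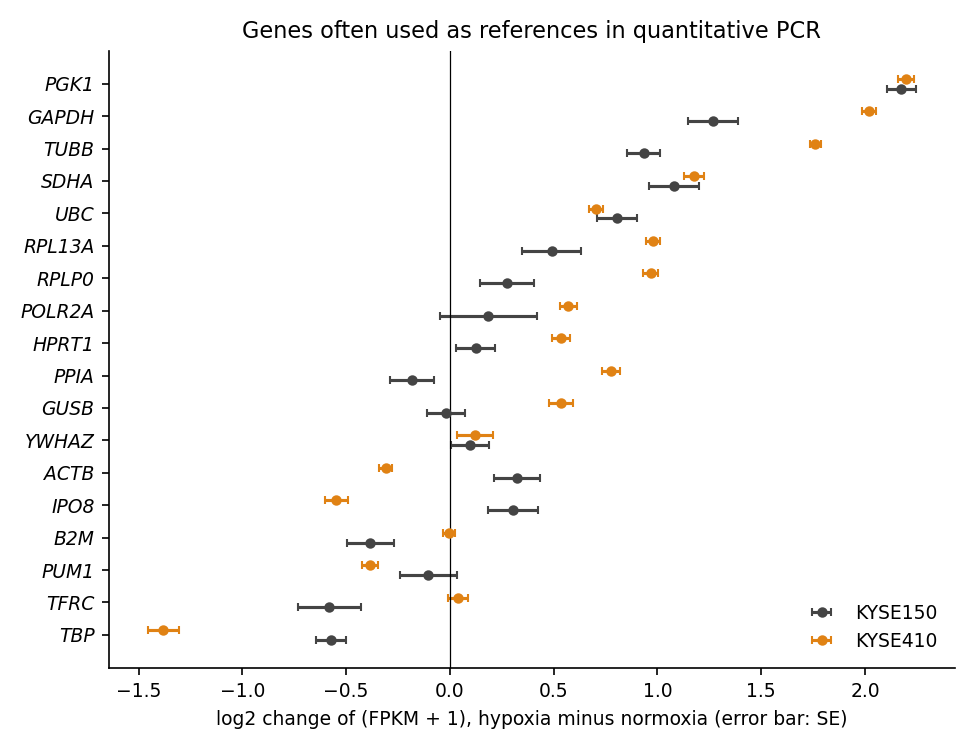
Log2 change of (FPKM + 1), hypoxia minus normoxia, of 18 genes often used as references in quantitative PCR, ordered by their mean change; points are KYSE150 (grey) and KYSE410 (orange), bars standard errors. PGK1 and GAPDH lie at the top and TBP at the bottom, and YWHAZ lies near 0 in both lines.

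GAPDH, TPI1 and ENO2 lie in this order on chromosome 12, with 329 kb between GAPDH and TPI1 and 42.8 kb between TPI1 and ENO2. The genes between TPI1 and ENO2 did not rise: SPSB2, RPL13P5, DSTNP2 and LRRC23 were not called in KYSE150, and in KYSE410 SPSB2 (-0.72), RPL13P5 (-0.58) and DSTNP2 (-0.55) were called lower and LRRC23 was not called (0.10). SPSB2 overlaps TPI1 on the opposite strand and LRRC23 overlaps ENO2 on the same strand. Between GAPDH and TPI1, 3 of 11 tested genes were called higher and 4 lower in KYSE150, against 23.5% and 38.8% of all genes tested. In KYSE410 these were 3 and 2 of 9, against 31.2% and 51.9%. Pseudogenes named after the 10 enzymes had 47 rows in KYSE150 and 53 in KYSE410, and only GAPDHP1 and TPI1P1 averaged at least 1 FPKM. All pseudogenes of GAPDH summed to 0.506% of GAPDH in KYSE150 normoxia and 0.456% in hypoxia, and to 0.462% and 0.457% in KYSE410. Those of TPI1 summed to 1.90% and 1.86%, and to 2.12% and 1.95%.

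Among 10941 other genes tested in both lines, the 5 whose log2 values over the 12 libraries lay nearest to the median profile of the 10 enzymes, each centred within its line, were SEMA4B (Euclidean distance 0.308), SLC6A8 (0.313), LOC102724660 (0.333), LDHAP4 (0.337) and RSRP1 (0.339). SLC6A8, the creatine transporter, averaged 28.1 FPKM in normoxia and 92.1 in hypoxia in KYSE150, and 10.9 and 56.2 in KYSE410. LDHAP4 is a copy of LDHA, and its reads may not be separable from those of LDHA. Of the 10 enzymes themselves GPI lay nearest to their median profile (0.329) and ALDOC farthest (1.98).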

How the data were processed

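The authors deposited 1 table per line, with 1 column per library and values in FPKM; the unit was inferred from the values, since FPKM times GENCODE 29 transcript length summed to 0.899 to 1.003 of the total that this unit implies. Per the submitters' processing notes, bcl2fastq 2.20, fastp 0.22.0, HISAT2 2.2.1 and hg38 were used; for the quantifier, the gene annotation and strandedness, the answer is not given in the sources used here. No steps of whole reads were recovered, so no count test was run and depth and counting error are unknown.

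Within each line, limma 3.58.1 (R 4.3.3, empirical Bayes with mean trend) was fitted to log2(FPKM + 1) of genes that averaged 1 FPKM or more over the 6 libraries; all 10 enzymes passed this filter in both lines. The difference between lines was the interaction of line and oxygen over all 12 libraries, from tables deposited separately. Calls used a Benjamini-Hochberg adjusted p under 0.05 over all genes tested. Shares were tested by exact two-sided permutation (Python 3.11.15, scipy 1.17.1). Scripts were tested on simulated data. Named genes were the 10 enzymes, their tissue-restricted relatives, up to 4 called genes of each other list with the largest change in each line, reference genes called in neither line, genes between TPI1 and ENO2, pseudogenes and the 5 nearest profiles; PFN1, ACTB, TBP, the glycolysis genes called lower and the markers under 1 FPKM were named after their values were seen. Part of what this rule takes is not reported here. The enzymes and lists were chosen with earlier results of these data known. Alternatives changed the scaling, the filter, the pseudocount or the threshold, added a replicate block, removed a transcript length trend or left out 1 library.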

Additional observations from a re-analysis of the deposited data

Results flagged for a closer look

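The response to hypoxia differed between the lines for 4 of the 10 enzymes, by the interaction of line and oxygen (limma, 12 libraries, KYSE410 minus KYSE150 on the log2 scale); over all genes tested 63.3% were called in either direction. PGAM1 differed by 0.89 (adjusted p = 5.90e-06): it rose in both lines, and more in KYSE410, and it was higher in 3 of 3 hypoxia libraries in each line. GAPDH differed by 0.75 (adjusted p = 1.61e-04), also with the larger rise in KYSE410, but by -0.24 under quantile normalization. GPI differed by 0.28 (adjusted p = 0.0104) in the same direction, but by 0.04 after rescaling to a common sum (adjusted p = 0.659). ALDOA differed by -0.35 (adjusted p = 0.0426), with the larger rise in KYSE150, a call lost in 15 of 21 alternatives.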

How the results depend on the processing

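Within each line all 10 enzymes were called higher and none lower in all 15 alternatives, and the 3 shares kept their direction and their side of the threshold in all alternatives run. The smallest changes in KYSE410 were those of ENO1 (0.37) and TPI1 (0.59) under quantile normalization. That scaling raised ALDOC to 3.28 and ENO2 to 2.82 and lowered the changes of the other enzymes. For the difference between lines, the count of enzymes called positive (3) was 2 to 4 throughout, but the count called negative (1) was 0 under median-of-ratios scaling, 5 after rescaling to a common sum, 7 under quantile normalization, 0 without a filter on low values, 0 at an adjusted p under 0.01, 3 with the length trend removed, and 0 to 3 when 1 library was left out. Signs turned for PKM under median-of-ratios scaling (0.024), for PGK1 (-0.23) and ENO1 (-0.029) after rescaling to a common sum, for GAPDH (-0.24), PGK1 (-0.20) and ENO1 (-0.51) under quantile normalization, and for ALDOC with the length trend removed (-0.066). With 1 library left out PGK1 ranged from -0.0066 to 0.052, turning without normoxia replicate 2 of KYSE150 or of KYSE410 (-0.0028), and TPI1 from -0.191 to 0.0032, turning without KYSE150 hypoxia replicate 1. Apart from the change of scale itself, the cause was not tested.

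Replicate numbers did not pair the libraries: deviations of same-numbered libraries correlated at -0.069 to 0.084, none of 6 pairs above 0.1. With the replicate number as a block the count called negative was 0. The shares then had an exact p of 0.03125, by flipping the signs of paired differences, the smallest that this test allows. Depth is unknown, so its limit on the low values of ALDOC, ENO2 and ENO3 could not be given.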
